A study of Homo sapiens with 54 samples.

Results

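The expression of 10 genes of the BCL2 family of apoptosis regulators was followed through the loss of the splicing factors *TRA2A* and *TRA2B*. The genes, *BCL2*, *BCL2L1*, *MCL1*, *BAK1*, *BOK*, *BCL2L11*, *BID*, *BAD*, *BMF* and *BIK*, were taken by name from the gene-level expression tables of 4 cancer cell lines and are 10 of the 55906 gene rows in each table. In brief, knockdown (KD) of either paralog alone moved none of them past the test. The double knockdown (DKD) raised *BAK1* in both lung cancer lines and *MCL1* in A549. *BCL2L1* was higher after *TRA2A* knockout (KO) in LN229. After *TRA2B* KO in LN319, 7 of 9 tested members were called, 6 of them lower. In that comparison 42.6% of all genes were called and 24.0% were lower, and the fall of *MCL1* depended on the scaling.

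BCL2 family proteins decide whether the outer mitochondrial membrane is opened to release cytochrome c. Guardians such as BCL2, BCL-XL (the long product of *BCL2L1*) and MCL1 hold the membrane closed, effectors such as BAK1 form the pores, and BH3-only proteins (BIM, encoded by *BCL2L11*, with BID, BAD, BMF and BIK) sense stress and either block the guardians or activate the effectors. *BCL2L1*, *MCL1* and *BCL2L11* are well-known alternatively spliced genes, and the products of *BCL2L1* and those of *MCL1* can have opposite activities. The values below sum all transcripts of a gene, so they cannot tell the products of any of these genes apart.

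The data comprised 54 RNA-seq libraries in 18 groups of 3. A549 and NCI-H23, lung adenocarcinoma lines, stably expressed Zim3-dCas9, a CRISPR interference repressor, and were collected 5 days after delivery of guides against control loci (Control KD), *TRA2A*, *TRA2B* or both (*TRA2A/B* DKD). LN229 and LN319, glioma lines, expressed luciferase (Luc) or a *TRA2B* cDNA (TRA2B-OE) and were collected 7 days after delivery of Cas9 with control, *TRA2A* or *TRA2B* guides; *TRA2B* KO was made in Luc cells only. All were infected cell populations under drug selection, and nothing states that replicates were separate cultures, so p-values measure the spread between these libraries. NCI-H23 and LN319 were studied as *TRA2A*-dependent lines, A549 and LN229 as independent ones.

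Expression was given as TPM (transcripts scaled to a fixed total per library), which sums to 928908 to 964610 per library and keeps no read depth. In bulk RNA of this kind, a change within cells and a change in which cells survive cannot be told apart. *KRT8* and *KRT18*, epithelial keratins, were at 444.9 TPM or more in every A549 and NCI-H23 library, whereas the surfactant gene *SFTPC* reached at most 0.749 TPM in A549. The glial genes *GFAP*, *OLIG2* and *S100B* reached at most 3.77, 0.14 and 1.07 TPM in LN319. In that line the neural stem cell genes *SOX2* and *NES* were at 316 TPM or more and at 6.12 to 14.7 TPM. The epithelial cadherin *CDH1* was at 116 TPM or more in LN319, *EPCAM*, another epithelial gene, at most at 1.31, and the lung gene *NKX2-1* at 5.68 to 20.2. In LN229, *S100B*, *NES*, *SOX2* and *OLIG2* were at 56.5, 213, 20.4 and 5.93 TPM or more, and *GFAP* reached at most 5.17. In NCI-H23, *CDH1* and *EPCAM* reached at most 2.47 and 1.74 TPM. *NKX2-1* reached at most 0.356 TPM in A549 and 1.06 in NCI-H23. A549 Control KD replicate 3 stood apart, at a median absolute log2 difference over genes of 0.61 from the mean of its other two, where all other libraries were at 0.355 or less. LN229 Luc Control KO replicate 1 was the farthest in its line, at 0.27, with LN229 TRA2B-OE Control KO replicate 1 next at 0.26 and NCI-H23 *TRA2A* KD replicate 2, in its own line, at 0.28. Member results that turn on one of these are given with and without it.

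**Figure D1:**
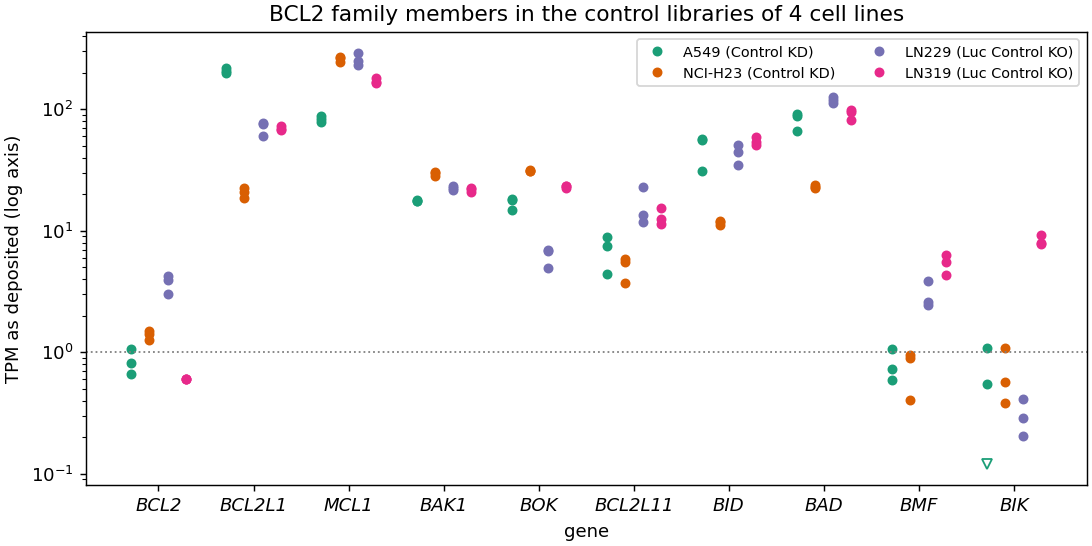
TPM as deposited (log axis) of each member in the 3 control libraries of each line, one point per library. The dotted line is at 1 TPM, and the open triangle marks *BIK* in A549 Control KD replicate 3, listed at 0. *BCL2L1* was the highest member in A549 and *MCL1* in the other lines.

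TRA2 proteins activate splicing by binding GAA-rich stretches in exons, so the coding sequences of the members were read for GAA as background on these genes. Over the Gencode v44 coding sequences of 20194 genes, the median was 21.5 GAA trinucleotides per kilobase, and the median of the 10 members was 15.7. *BCL2L1* held 25.8 and *BID* 23.9 per kilobase, both above that median, *MCL1* held 16.2, *BAK1* held 9.48, and *BOK*, the sparsest, held 1.57. The 60 coding bases with the most GAA are shown for the guardians and effectors that changed in the comparisons below, on GRCh38 and in the direction of transcription, with GAA in capitals. Those of *BCL2L1* are in exon 2 of 3 on the minus strand (chr20:31722093-31722152), those of *MCL1* in exon 2 of 3 on the minus strand (chr1:150578304-150578363), those of *BAK1* in exon 3 of 6 on the minus strand (chr6:33575849-33575908), and those of *BOK* in exon 5 of 5 on the plus strand (chr2:241572329-241572388).
BCL2L1: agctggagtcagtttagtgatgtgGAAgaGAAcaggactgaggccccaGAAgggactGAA
MCL1: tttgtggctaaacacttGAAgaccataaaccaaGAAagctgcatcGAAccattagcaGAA
BAK1: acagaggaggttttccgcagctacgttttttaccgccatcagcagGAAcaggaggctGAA
BOK: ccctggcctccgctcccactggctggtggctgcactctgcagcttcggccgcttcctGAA
The windows of *BCL2L1* and *MCL1* held 4 GAA each, that of *BAK1* held 2 and that of *BOK* held 1. These letters describe the genes and do not show binding.

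The lines differed in which guardian was abundant. *BCL2L1* (chr20:31664452-31723989) was at 208 ± 10.4 TPM (mean ± SD, n = 3 here and below) in the Control KD of A549 and 20.6 ± 1.86 in that of NCI-H23. In Luc Control KO it was at 70.8 ± 9.39 TPM in LN229 and 69.6 ± 2.81 in LN319. *MCL1* (chr1:150560895-150579738) ran the other way in the lung lines, at 83.2 ± 5.11 TPM in A549 against 259 ± 12.9 in NCI-H23, with 257 ± 30.4 in LN229 and 171 ± 7.32 in LN319. The glioma lines did not differ in *BCL2L1* beyond their spread, and neither did NCI-H23 and LN229 in *MCL1*. *BCL2* itself (chr18:63123346-63320128) was scarce throughout, highest in LN229 at 3.74 ± 0.636 TPM and lowest in LN319 at 0.602 ± 0.00207.

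Among the effectors, *BAK1* (chr6:33572547-33580293) varied little between lines, from 17.8 ± 0.231 TPM in A549 to 29.7 ± 1.25 in NCI-H23. *BOK* (chr2:241551424-241574131), a BAK1 relative, ranged from 6.24 ± 1.09 TPM in LN229 to 31.1 ± 0.358 in NCI-H23. The most abundant BH3-only gene was *BAD* (chr11:64269830-64284704), at 81.4 ± 13.4 TPM in A549, with 119 ± 6.57 in LN229 and 91.9 ± 8.64 in LN319, and lower in NCI-H23, at 23.01 ± 0.586. *BID* (chr22:17734138-17774770), which is cleaved by caspase-8 to link death receptors to mitochondria, was lowest in NCI-H23 at 11.6 ± 0.431 TPM and highest in LN319 at 54.6 ± 3.9. *BCL2L11* (chr2:111119378-111168444) lay between 5.03 ± 1.17 TPM in NCI-H23 and 16.1 ± 5.98 in LN229. *BMF* (chr15:40087890-40108892) was above 1 TPM on average only in the controls of LN229 and LN319, and *BIK* (chr22:43110750-43129712) only in those of LN319, at 8.28 ± 0.757 TPM. These levels were compared across separately processed tables and were not tested.

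The targeted genes behaved as labelled under CRISPR interference. *TRA2A* fell from 75.1 ± 5.08 to 7.18 ± 2.81 TPM in A549 *TRA2A* KD and from 105 ± 2.55 to 6.84 ± 0.255 in NCI-H23 *TRA2A* KD, and *TRA2B* fell from 137 ± 3.17 to 13.3 ± 0.856 and from 92.2 ± 11.3 to 9.75 ± 1.45 in the *TRA2B* KDs. Cas9 cuts the gene and need not remove its RNA. *TRA2A* RNA fell by 0.65 (log2) in LN229 Luc cells and fell by 1.55 in LN319 Luc cells, whereas in LN229 TRA2B-OE cells it was at 69.9 ± 5.2 TPM after *TRA2A* KO against 80.2 ± 4.85, which did not pass the test (adjusted p = 0.079). *TRA2B* RNA fell by 0.64 in LN229 and by 1.61 in LN319 after *TRA2B* KO.

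Each perturbation was compared with its own control by limma on log2(scaled TPM + 0.1), with p-values adjusted over all genes tested in that comparison (Benjamini-Hochberg) and a call at an adjusted p under 0.05. Fold changes below are on that scale, which understates changes of low genes, and ± after a fold change is its standard error. In every line 9 of the 10 members passed the filter on low values. *BCL2* was not tested in A549 and LN319, *BMF* in NCI-H23 and *BIK* in LN229.

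**Figure D2:**
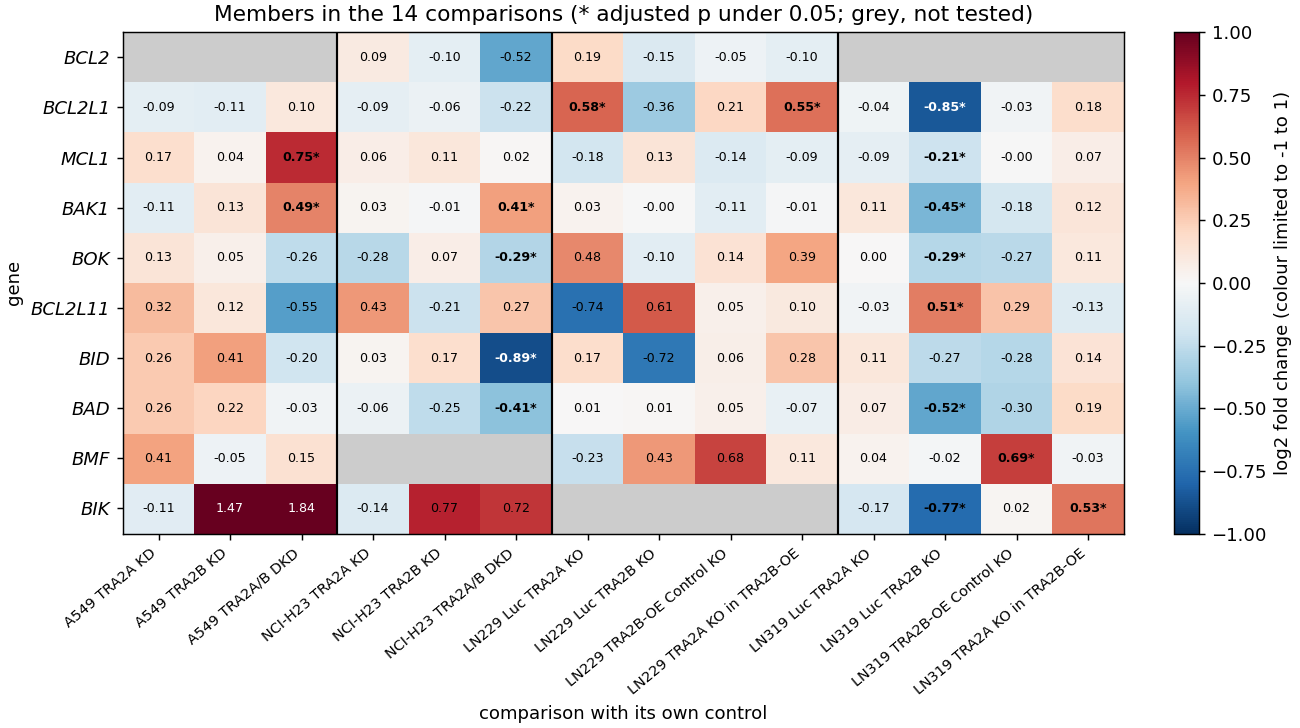
Log2 fold change of each member (rows) in the 14 comparisons (columns), with an asterisk where the limma adjusted p was under 0.05 and grey where the gene was not tested. The LN319 *TRA2B* KO column holds 7 of 9 members called, where 42.6% of all genes were called. The single knockdown columns hold none, where 0.196% to 0.976% of all genes were called.

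Loss of one paralog alone left the members without a call in the lung lines. In A549, 0 of 9 members were called by limma after *TRA2A* KD and 0 of 9 after *TRA2B* KD, where 0.207% and 0.341% of all genes were called, and at an unadjusted p under 0.05 the count was also 0 in each. In NCI-H23 the counts were 0 of 9 in each, against 0.976% and 0.196% of all genes, with 1 and 2 members at an unadjusted p under 0.05. The widest interval belonged to *BIK* in A549, whose log2 fold change of 1.47 ± 0.83 after *TRA2B* KD rested on control libraries at 0.548, 1.08 and 0 TPM. For *MCL1* the 95% interval reached 0.21 to either side of a log2 fold change of 0.17 in A549 *TRA2A* KD, and 0.10 to either side of 0.06 in NCI-H23 *TRA2A* KD.

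In the A549 double knockdown, the guardian *MCL1* and the effector *BAK1* rose together. *MCL1* was at 78.1, 88.3 and 83.0 TPM in Control KD and at 142, 147 and 152 TPM in *TRA2A/B* DKD. The groups did not overlap, and the single knockdowns stayed between 78.1 and 95.9 TPM. The log2 fold change was 0.75 ± 0.09 (limma, adjusted p = 0.00019). *BAK1* was at 17.7, 18.0 and 17.6 TPM in Control KD and at 26.7, 26.9 and 26.0 TPM in DKD. Each DKD library lay above each control library, with a log2 fold change of 0.49 ± 0.12 (adjusted p = 0.0094). The *BAK1* call was lost when only these 2 groups entered the fit (adjusted p = 0.0503).

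Those were 2 of 9 members called, both higher, where 30.6% of all genes were called, 14.3% higher and 16.3% lower, so the share of members was no larger than that of all genes. No member met the stricter rule of an absolute log2 fold change above 1 as well, which 12.8% of genes met. *BCL2L1* was at 233, 240 and 233 TPM in DKD against 197, 208 and 218 in Control KD, a log2 fold change of 0.10 ± 0.08 (adjusted p = 0.35). Without Control KD replicate 3, in which *BID* stood at 31.0 TPM against 55.3 and 56.9 in the other controls, 4 of 9 members were called, against 37.8% of genes. *BID* then fell by 0.58 (adjusted p = 0.0025) and *BOK* by 0.30 (adjusted p = 0.046), while with all controls their log2 fold changes were -0.20 and -0.26 and neither was called.

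In the NCI-H23 double knockdown, *BAK1* rose and *BID*, *BAD* and *BOK* fell. *BAK1* was at 30.1, 28.3 and 30.6 TPM in Control KD and at 41.0, 45.3 and 45.4 TPM in DKD. The groups did not overlap, and the log2 fold change was 0.41 ± 0.08 (limma, adjusted p = 0.0017). *BID* was at 11.7, 11.1 and 11.98 TPM in Control KD and at 5.72, 7.94 and 7.34 TPM in DKD. Each DKD library lay below each control library and each single knockdown library, and *BID* fell by 0.89 ± 0.15 on the log2 scale (adjusted p = 0.00082).

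*BAD*, whose product binds BCL-XL when it is not phosphorylated, fell by 0.41 ± 0.11 (adjusted p = 0.012), from 23.01 ± 0.586 to 19.4 ± 2.0 TPM. *BOK* fell by 0.29 ± 0.07 (adjusted p = 0.0083), from 31.1 ± 0.358 to 28.3 ± 0.516 TPM. TMM scaling lowered log2 fold changes in this comparison by 0.16 relative to TPM as deposited, and on TPM as deposited neither *BAD* nor *BOK* was called. With the trend in gene length and GC content removed, the *BOK* log2 fold change was -0.05 (adjusted p = 0.63), while *BAD* was still called. Mitochondrially encoded transcripts took 19.3% to 28.3% of TPM in the DKD libraries against 23.1% to 31.9% in the controls. With TPM rescaled to nuclear genes, *BAK1* was at 141% of control in place of 148%, *BID* at 57.8% in place of 60.3%, *BAD* at 79.8% in place of 84.1% and *BOK* at 86.7% in place of 91.0%. *MCL1*, already abundant in this line, was at 290.4, 271 and 313 TPM against 244, 267 and 265, with a log2 fold change of 0.02 ± 0.04 (adjusted p = 0.80). In all 4 of 9 members were called where 43.2% of genes were: 1 higher against 20.0% of genes, and 3 lower against 23.2%. No member passed an absolute log2 fold change of 1, which 12.8% of genes did.

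**Figure D3:**
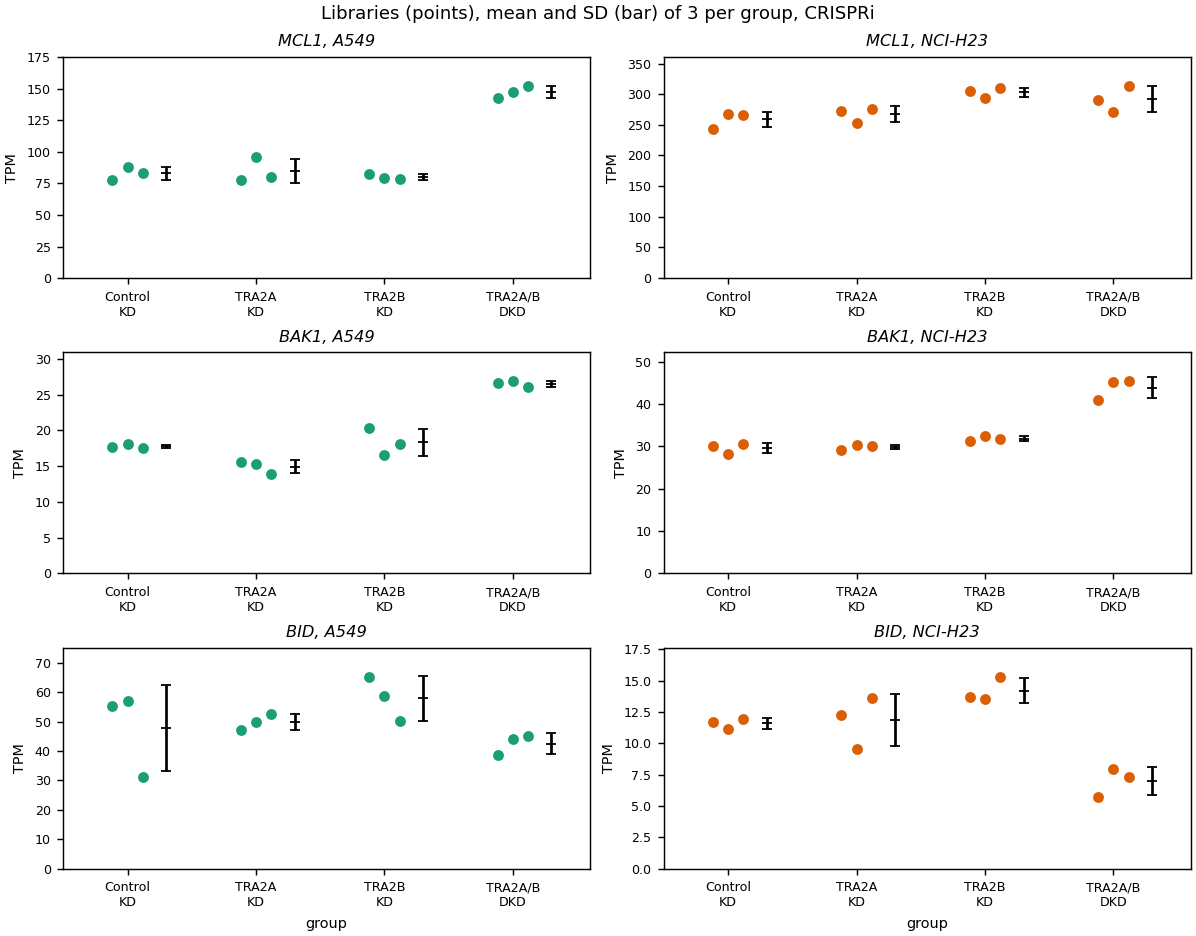
TPM of *MCL1*, *BAK1* and *BID* in every A549 (left) and NCI-H23 (right) library, with the mean and SD of the 3 libraries of each group beside the points; axes start at 0. *BAK1* was highest in the *TRA2A/B* DKD of both lines, *MCL1* in that of A549, and *BID* was lowest in the DKD of NCI-H23.

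The double knockdown was next set against the sum of the single ones (DKD minus both KDs plus control, on the log2 scale). In A549, *MCL1* exceeded that sum by 0.54 ± 0.13 (limma, adjusted p = 0.023), 1 of 9 members where 14.7% of all genes were called, and the call was lost when any of 7 knockdown libraries was left out singly. Without Control KD replicate 3, 4 of 9 members were called against 21.9% of genes, *MCL1* at 0.63, *BAK1* at 0.57 and *BCL2L1* at 0.37 above the sum and *BID* at a difference of -0.49. In NCI-H23, *BID* lay 1.09 below the sum (SE 0.22, adjusted p = 0.0052) and *BAK1* 0.39 ± 0.11 above it (adjusted p = 0.028), 2 of 9 members against 21.0% of genes. With the trend in length and GC removed, *MCL1* in A549 lay 0.37 above the sum and was not called (adjusted p = 0.092). The *BID* call was kept under each alternative at the same threshold, and the *BAK1* call was lost under 10 of them.

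The 10 genes sit in a larger network, which was described by 59 further genes in 5 groups. *PMAIP1* and *BBC3*, which encode the BH3-only proteins NOXA and PUMA, rose by 2.74 ± 0.21 and 1.94 ± 0.12 (log2) in A549 DKD and by 0.99 ± 0.12 and 1.21 ± 0.13 in NCI-H23 DKD (limma, adjusted p of 9.4e-05 or lower). Of the other BCL2 family genes, 5 of 10 tested rose and 2 fell in A549, and 5 of 9 rose and 2 fell in NCI-H23. Of all genes, 14.3% rose and 16.3% fell in A549, and 20.0% rose and 23.2% fell in NCI-H23. *BCL2L2*, which encodes the guardian BCL-W, rose by 1.00 ± 0.28 and 0.64 ± 0.12, although it shares sequence with the read-through row *BCL2L2-PABPN1*, at 3.69 to 28.4 TPM in these lines, so its reads may be split. *BCL2L13* rose by 0.53 and 0.54, *BNIP3L* by 0.52 and 0.56, and *BNIP3* fell by 0.47 and 0.64.

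Among death receptors and adaptors, 5 of 10 tested genes rose and 2 fell in A549, where 14.3% of all genes rose, and 4 of 10 rose and 2 fell in NCI-H23, where 20.0% did. *FAS* rose by 1.63 ± 0.15 in A549 and 1.37 ± 0.38 in NCI-H23, the TRAIL receptor *TNFRSF10B* by 1.24 ± 0.09 and 1.37 ± 0.07, and the TRAIL decoy receptor *TNFRSF10C* by 1.43 ± 0.15 and 1.63 ± 0.44. The stress transcription factor gene *DDIT3* (CHOP) had the largest change among the regulators, 4.57 ± 0.36 in A549 and 3.05 ± 0.24 in NCI-H23. *E2F1* fell by 0.96 and 1.04. Of 14 regulators and partners, 5 rose and 3 fell in A549, where 14.3% of all genes rose and 16.3% fell. In NCI-H23, 7 rose and 3 fell, where 20.0% of all genes rose and 23.2% fell.

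Of the inhibitors of apoptosis, 2 of 7 rose and 2 fell in A549, where 14.3% of all genes rose and 16.3% fell. In NCI-H23, 1 of 6 rose and 3 fell, where 20.0% of all genes rose and 23.2% fell. *BIRC2* and *BIRC3*, which encode cIAP1 and cIAP2, rose by 1.10 ± 0.12 and 1.11 ± 0.21 in A549 and fell by 0.40 ± 0.07 and 1.06 ± 0.11 in NCI-H23, a difference between lines that was not tested. *BIRC5* (survivin), a mitotic gene as well, fell by 1.86 ± 0.13 and 1.00 ± 0.07, *BIRC7* fell by 1.30 ± 0.23 in A549, and *XIAP* rose by 1.34 ± 0.10 in NCI-H23. In the apoptosome and caspase group, against the same shares of all genes, 1 of 13 tested genes rose and 2 fell in A549. In NCI-H23, 3 of 12 rose and 5 fell, among them *ENDOG*, which fell by 1.13 ± 0.09. Over all genes tested, the log2 fold change had a median of 0.03 (A549) or 0.02 (NCI-H23). Without A549 Control KD replicate 3, the A549 genes named here from outside the members were called in the same direction, with *BCL2L2* at 0.66 in place of 1.00. The apoptosome and caspase group then had 0 rising and 5 falling genes of 13, and the regulators and partners 5 and 5 of 14. The other BCL2 family genes then had 5 rising and 3 falling of 10, and the death receptors and adaptors 5 and 3 of 10. The inhibitors of apoptosis had 3 and 2 of 7. Of all genes, 16.6% then rose and 21.2% fell.

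**Figure D4:**
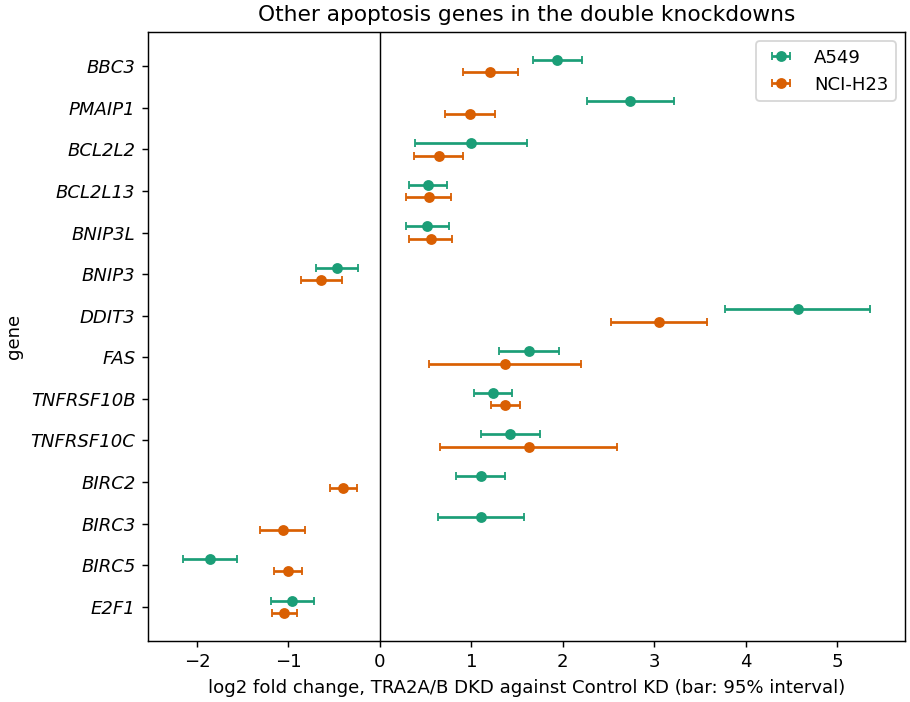
Log2 fold change of 14 apoptosis genes outside the 10 members in the *TRA2A/B* DKD of A549 and NCI-H23, with 95% intervals as bars; filled points are called at an adjusted p under 0.05. *DDIT3*, *PMAIP1*, *BBC3*, *FAS*, *TNFRSF10B* and *TNFRSF10C* lie to the right of 0 in both lines, while *BIRC2* and *BIRC3* lie on opposite sides.

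In LN229, *BCL2L1* was the only member called after *TRA2A* KO against its own control. It was at 59.96, 75.6 and 76.8 TPM in Luc Control KO and at 100.3, 103 and 109 TPM in Luc *TRA2A* KO. The groups did not overlap, and *BCL2L1* rose by 0.58 ± 0.10 (limma, adjusted p = 0.011), or 0.46 without Luc Control KO replicate 1 (adjusted p = 0.032). In TRA2B-OE cells it was at 75.3, 87.4 and 88.8 TPM with control guides and at 123, 121 and 131 TPM with *TRA2A* guides, a rise of 0.55 ± 0.10 (adjusted p = 0.0093), or 0.46 without TRA2B-OE Control KO replicate 1 (adjusted p = 0.033). These were 1 of 9 members in each comparison, where 3.68% and 6.07% of all genes were called. By limma, 4 and 2 members were at an unadjusted p under 0.05. In Luc cells the member log2 fold changes ran from -0.75 to 0.58. Both calls were lost when only the 2 groups compared entered the fit, and the first also without Luc *TRA2A* KO replicate 3.

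The rise of *BCL2L1* after *TRA2A* KO did not differ detectably between TRA2B-OE and Luc cells, with a difference of -0.03 and a 95% interval of 0.31 to either side. No gene of 18490 was called in that difference of responses (0%), and by limma 0 of 9 members were, with 1 at an unadjusted p under 0.05. That one was *BCL2L11*, at 22.95, 11.9 and 13.6 TPM in Luc Control KO, 8.24, 9.18 and 9.89 in Luc *TRA2A* KO, and 18.3, 17.7 and 17.6 in TRA2B-OE *TRA2A* KO. Its first control library was the one farthest from its group. TRA2B-OE alone called 0 of 9 members by limma, against 1.03% of genes, with 1 at an unadjusted p under 0.05.

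After *TRA2B* KO in LN229, 0 of 9 members were called by limma, against 0.568% of all genes, with 3 at an unadjusted p under 0.05. That count turned on one control library. Without Luc Control KO replicate 1, whose *BCL2L1*, *BCL2L11* and *BID* levels (59.96, 22.95 and 35.0 TPM) lay nearer to the *TRA2B* KO means (56.4, 24.5 and 27.4 TPM) than to the other controls, 4 of 9 members were called and 20.6% of genes. *BCL2L1* then fell by 0.48 (adjusted p = 0.0054), *BID* fell by 0.87 (adjusted p = 0.017), *BCL2L11* rose by 0.89 (adjusted p = 0.0067) and *MCL1* rose by 0.22 (adjusted p = 0.019).

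LN319 gave the widest response, after loss of *TRA2B*. *BCL2L1* was at 68.5, 67.5 and 72.8 TPM in Luc Control KO and at 37.7, 44.1 and 43.3 TPM in Luc *TRA2B* KO. The groups were far apart, and *BCL2L1* fell by 0.85 ± 0.09 (limma, adjusted p = 3.1e-05). *BIK*, whose product sits at the endoplasmic reticulum, was at 7.93, 7.77 and 9.15 TPM in the controls and at 4.73, 5.74 and 5.16 TPM after *TRA2B* KO. It fell by 0.77 ± 0.10 (adjusted p = 0.00015), again without overlap.

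The effectors fell as well. *BAK1* was at 22.7, 21.9 and 20.9 TPM in the controls and at 15.9, 18.99 and 16.6 TPM after *TRA2B* KO, and fell by 0.45 ± 0.08 (adjusted p = 0.00054). *BOK* fell by 0.29 ± 0.08 (adjusted p = 0.014), from 23.1 ± 0.435 to 20.4 ± 1.12 TPM, a call lost without Luc *TRA2B* KO replicate 1. *BAD* fell by 0.52 ± 0.14 (adjusted p = 0.0095), from 91.9 ± 8.64 to 68.8 ± 3.74 TPM.

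*BCL2L11* moved against the others, from 12.5, 15.3 and 11.4 TPM in the controls to 19.5, 17.8 and 22.5 TPM, a rise of 0.51 ± 0.13 (adjusted p = 0.0066). The remaining call was *MCL1*, which fell by 0.21 ± 0.04 (adjusted p = 0.0012), from 171 ± 7.32 to 159 ± 3.76 TPM. Scaling lowered log2 fold changes in this comparison by 0.11 relative to TPM as deposited, and the *MCL1* call was lost on TPM as deposited and under quantile normalization. In all, 7 of 9 members were called where 42.6% of genes were, 1 higher against 18.6% of genes and 6 lower against 24.0%. Mitochondrially encoded transcripts took 18.3% to 20.6% of TPM in the *TRA2B* KO libraries against 12.1% to 12.8% in the controls. With TPM rescaled to nuclear genes, *MCL1* was at 100.8% of control in place of 93.2%, so its direction turned, *BOK* was at 95.5% in place of 88.4%, and *BCL2L1* was at 64.8% in place of 59.9%. *BAK1* was then at 85.1% and *BIK* at 67.97%. The median log2 fold change was -0.29 over the members and 0.02 over all genes. No member passed an absolute log2 fold change of 1, which 3.92% of genes did. Of the apoptosome and caspase genes, 9 of 12 fell and 1 rose in the same comparison, among them *CYCS* (cytochrome c), which fell by 0.76 ± 0.12. *DYNLL1*, whose product binds BIM, fell by 0.66 ± 0.08. *TNFSF10* (TRAIL) rose by 0.81 ± 0.28, *BBC3* by 0.42 ± 0.13 and *NAIP* by 0.37 ± 0.11.

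Loss of *TRA2A* in LN319, the *TRA2A*-dependent glioma line, moved no member past the test. By limma 0 of 9 were called where 14.3% of all genes were, with 1 at an unadjusted p under 0.05, and the member log2 fold changes ran from -0.17 to 0.11. *BCL2L1* was at 64.4, 62.3 and 71.1 TPM, overlapping the controls, with a log2 fold change of -0.04 and a 95% interval of 0.19 to either side. Other apoptosis genes did change in these libraries. *TNFSF10* fell by 1.40 ± 0.28, *TNFRSF1A* (TNF receptor 1) by 0.60 ± 0.11 and *FAS* by 0.51 ± 0.16, and *DDIT3* rose by 0.69 ± 0.11, *MAPK8* (JNK1) by 0.41 ± 0.10 and *BIRC2* by 0.40 ± 0.11.

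In LN319 TRA2B-OE cells, *BMF* was at 10.1, 9.07 and 8.54 TPM against 4.31, 6.35 and 5.55 in Luc Control KO, a rise of 0.69 ± 0.18 (limma, adjusted p = 0.047). This was 1 of 9 members, against 4.31% of genes. *BIK* was at 12.9, 12.1 and 12.3 TPM after *TRA2A* KO in TRA2B-OE cells against 8.59, 10.1 and 8.17 with control guides, a rise of 0.53 ± 0.10 (adjusted p = 0.023), again 1 of 9, against 2.77% of genes. Neither pair of groups overlapped, and both calls were lost when most single libraries were left out. The response of *BIK* to *TRA2A* KO was 0.70 ± 0.15 higher in TRA2B-OE than in Luc cells without passing the test (adjusted p = 0.29). By limma 0 of 9 members were called in that difference, against 0.0207% of genes, with 2 at an unadjusted p under 0.05.

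**Figure D5:**
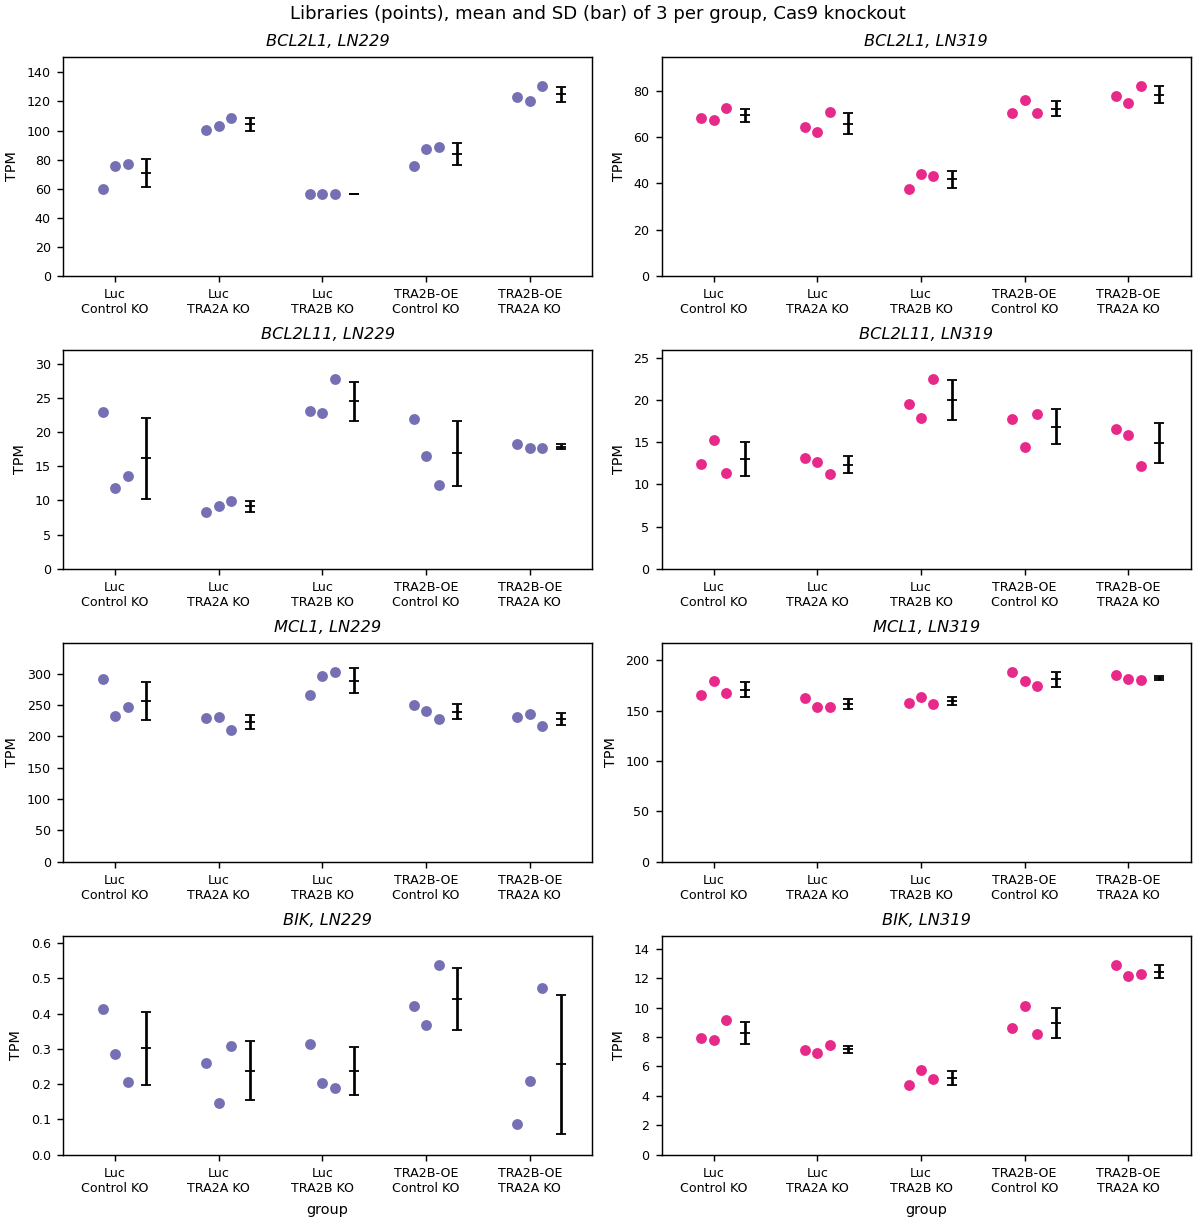
TPM of *BCL2L1*, *BCL2L11*, *MCL1* and *BIK* in every LN229 (left) and LN319 (right) library, with the mean and SD of the 3 libraries of each group beside the points; axes start at 0. *BCL2L1* was highest in the *TRA2A* KO groups of LN229 and lowest in the *TRA2B* KO group of each line.

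The knockouts were also set against each other in Luc cells, a comparison whose difference uses no control library, although the controls enter the estimate of the spread, and which was added after member values had been seen. In LN229, *BCL2L1* was 0.94 ± 0.10 higher after *TRA2A* KO than after *TRA2B* KO (limma, adjusted p = 0.00022), *BID* 0.89 ± 0.20 higher (adjusted p = 0.006) and *BOK* 0.58 ± 0.17 higher (adjusted p = 0.018). *BCL2L11* was lower, with a log2 fold change of -1.36 ± 0.22 (adjusted p = 0.001), and so was *MCL1*, at -0.31 ± 0.07 (adjusted p = 0.0061). These were 5 of 9 members against 34.1% of genes, 3 higher against 18.0% and 2 lower against 16.1%, and *BCL2L11* was the 1 member past an absolute log2 fold change of 1, as 7.41% of genes were.

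In LN319, 8 of 9 members were called in that comparison, against 47.2% of genes, 7 higher after *TRA2A* KO (26.1% of genes) and 1 lower (21.0%). *BCL2L1* was 0.81 ± 0.09 higher (adjusted p = 1.6e-05) and *BCL2L11* was lower, at -0.54 ± 0.13 (adjusted p = 0.0038). *BCL2L1* was thus higher and *BCL2L11* lower after *TRA2A* KO than after *TRA2B* KO in both lines. *BAK1* was 0.57 ± 0.08 higher in LN319 (adjusted p = 7.2e-05) and 0.03 ± 0.08 in LN229 (adjusted p = 0.76), a difference between lines that was not tested. *MCL1* was 0.12 ± 0.04 higher in LN319 (adjusted p = 0.025), a direction that turned under other scalings. That call was lost under the fold threshold and under 9 others of 16 alternatives, among them the fit of only these 2 groups.

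The balance of the abundant guardians followed from these values. The ratio of *MCL1* to *BCL2L1* TPM was 0.40 ± 0.022 in A549 Control KD and 0.63 ± 0.024 in DKD, with the single knockdowns between them. In NCI-H23 it was 12.6 ± 0.632 and 14.9 ± 2.27, which overlapped. In LN229 it was 3.72 ± 0.987 in Luc Control KO (4.86, 3.08 and 3.22 by library, the first being the farthest from its group), 2.15 ± 0.188 after *TRA2A* KO and 5.12 ± 0.334 after *TRA2B* KO, and in LN319 it was 2.46 ± 0.18, 2.38 ± 0.198 and 3.84 ± 0.3. These ratios are descriptions and were not tested.

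*BCL2L1* and *BAK1* were each called in 3 of the 14 comparisons, and *BCL2L1* had the larger mean absolute log2 fold change, 0.25 against 0.16. Over the libraries of each line, the genes whose log2 levels ran most like those of *BCL2L1*, of 13381 tested in all lines, were *TCEB3*, *ETS1*, *DAPK3*, *ALKBH1* and *AMOTL2*, with mean Pearson correlations over the 4 lines of 0.81 to 0.75. In single lines they ran from 0.402 (*AMOTL2*, NCI-H23) to 0.99 (*TCEB3*, LN229). Each correlation took in all groups of a line under one shared scaling, so differences between groups enter it and these are descriptions. Rows that could share reads with a member were low: the pseudogenes *BAK1P1* and *BAK1P2* reached at most 0.312 and 0.113 TPM, and the antisense *BOK-AS1* at most 0.654 TPM.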

How the data were processed

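RNA-seq was performed on poly(A) RNA from 54 libraries of A549, NCI-H23, LN229 and LN319 cells, with strand-marking (dUTP) libraries. The authors quantified transcripts with kallisto 0.48.0 on GRCh38 (Gencode v34) and deposited TPM per gene symbol, 1 table per line; the submitters' notes also name STAR 2.7.3. TPM carries no depth, so no counting interval is given, and how transcripts were summed to genes is not given in the sources used here. Counts were not analysed here, so the study's count-based pipeline was replaced by limma 3.58.1 (R 4.3.3) on log2(TPM + 0.1) after unweighted TMM scaling, with genes kept at 1 TPM or more in at least 4 libraries of the line. One fit per line held all its groups. Tests were two-sided, with Benjamini-Hochberg adjustment over all genes of a comparison. With 3 against 3 libraries, an exact permutation test of a single value cannot go below p = 0.1, so none is quoted. The fit was tested on simulated data.

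The members and the gene lists were chosen with earlier results of these data known. The text names all members, *TRA2A* and *TRA2B*, relatives of the members called in both double knockdowns and, among 59 further apoptosis genes, the 3 largest called changes per direction in both double knockdowns and both LN319 Luc knockouts, of which 1 is not reported here; other double knockdown values of *FAS*, *TNFRSF10B*, *TNFRSF10C*, *BIRC2*, *BIRC3*, *BIRC5* and *XIAP* were named after they were seen. Alternatives were pseudocount, filter, scaling, groups in the fit, replicate block, a fold threshold, removal of length and GC trends (Gencode v44) and leaving out each library. In every line, 28 gene names had been turned into dates and 2 were repeated; no member was affected.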

Additional observations from a re-analysis of the deposited data

Results flagged for a closer look

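In 3 cases the effect of one knockdown on a member differed with the state of the other paralog, by the limma test of that difference (DKD minus both single knockdowns plus control). In A549, *MCL1* lay 0.54 (log2) above the sum of the single knockdowns. That call was lost under the fold threshold and under 9 others of 21 alternatives. That was 1 of 9 members, where 14.7% of all genes were called. In NCI-H23, *BAK1* lay 0.39 above the sum, a call lost under the fold threshold and under 10 others of 21. *BID* gave a difference of -1.09 there, called under all 21. Those were 2 of 9 members, where 21.0% of all genes were called.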

How the results depend on the processing

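A result is here the number of members called in a comparison. With an absolute log2 fold change above 1 also required, 0 members were called everywhere except 1 (*BID*) in the NCI-H23 difference and 1 (*BCL2L11*) in LN229 *TRA2A* KO against *TRA2B* KO. Of all genes, 6.56% and 7.41% met that rule there, and at most 12.8% did in any comparison. With only the compared groups in the fit, A549 DKD kept 1 member, and the single calls in LN229 (both) and LN319 TRA2B-OE (both) fell to 0. Genes called then numbered 2922 of 16405 in A549 DKD, 1 and 192 of 18490 in LN229, and 41 and 2 of 19303 in LN319. On TPM as deposited, NCI-H23 DKD had 2 members in place of 4, with 6941 of 16293 genes called in place of 7035. For the A549 difference of DKD from the single knockdowns, 3 members were called under each of 4 settings. These were a minimum of 5 TPM (2325 of 11376 genes called), TPM as deposited (2260 of 16405), quantile normalization (2188 of 16405) and the length and GC trend removed (2080 of 13517). Without a filter 0 members were called (2078 of 37034 genes). With the trend removed the members called were *BAK1*, *BCL2L1* and *BCL2L11*, and *MCL1* was not among them. *BMF* in LN319 TRA2B-OE was lost (0 called) without a filter and under quantile normalization, where 364 of 42225 and 871 of 19303 genes were called.

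Leaving out single libraries gave 2 to 4 members in A549 DKD, 0 to 1 in LN229 Luc *TRA2A* KO, 0 to 4 in LN229 Luc *TRA2B* KO, 0 to 1 in each LN319 TRA2B-OE comparison, 0 to 4 in the A549 difference and 1 to 3 in the NCI-H23 difference. The number of all genes called moved too. It ran from 3586 to 6207 of 16405 in A549 DKD, and in LN229 from 33 to 748 (*TRA2A* KO) and 3 to 3812 (*TRA2B* KO) of 18490. In LN319 it ran from 123 to 1728 (TRA2B-OE Control KO) and 60 to 435 (TRA2B-OE *TRA2A* KO) of 19303. The differences had 1492 to 3588 of 16405 genes (A549) and 2670 to 3960 of 16293 (NCI-H23). *MCL1* in LN319 *TRA2A* KO against *TRA2B* KO turned from 0.12 to -0.026 on TPM as deposited and to -0.087 under quantile normalization. The cause of these changes was not tested.

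Correlations between deviations of same-numbered libraries ran from -0.15 to 0.21 over the lines, so not every pair was above 0.1 and the numbers were not taken as pairs. Of 54 libraries, 28 correlated best with their own number, where 18 would if the numbers carried nothing (NCI-H23 4 of 12, A549 8 of 12), a hint from the data and not from the design. With the replicate block, LN229 Luc *TRA2A* KO had 2 members, LN229 Luc *TRA2B* KO 1, LN319 TRA2B-OE Control KO 2 and the NCI-H23 difference 1. Genes called there went from 681 to 1585 and from 105 to 1297 of 18490, from 832 to 1923 of 19303, and from 3429 to 3137 of 16293. The other counts were within 1.5 times of those reported. TPM rescaled to nuclear genes moved 6 of 30 percent-of-control values by more than 1 SD and turned 1 (*MCL1* in LN319 *TRA2B* KO, 93.2% to 100.8%). TPM gives no depth, so which members were too low to test beyond the filter could not be set.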
